A study of Mus musculus with 74 samples.

Results

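Of the 86168 PPARα rows tabulated from *Ncor* WT and *Ncor* LKO livers, 9274 carried a PPARα peak in at least 2 of the 3 *Ncor* WT peak lists and no GPS2 peak in any WT list of the *Gps2* and *Ncor* lines, and these 9274 regions are described here. A row is a genomic interval of the deposited table, with a median width of 200 bp in this set. GPS2 was absent by 4 lists, 1 from *Gps2* WT and 3 from *Ncor* WT livers. Another 44624 rows met the PPARα criterion but overlapped a GPS2 peak by at least 1 base, and they serve as the counterpart throughout. They are called the rows with GPS2.

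PPARα is a nuclear receptor that binds DNA as a heterodimer with RXR and drives fatty acid oxidation and ketogenesis in the liver. NCOR, SMRT and GPS2 belong to a corepressor complex that holds the histone deacetylase HDAC3, and H3K27ac, the acetylation that HDAC3 can remove, marks active promoters and enhancers. The PPARα-RXR dimer recognises a DR1 element, which is a direct repeat of 2 copies of AGGTCA with 1 base between them, and HNF4A, a receptor that specifies hepatocytes, binds related repeats.

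All livers came from mice labelled C57BL/6, 8 to 12 weeks old, fed chow diet and, per the methods of the study, male. *Gps2* LKO mice carried floxed *Gps2* alleles and the albumin promoter-driven Cre recombinase, and their WT were littermates with the floxed alleles and no Cre. *Ncor* LKO and *Smrt* LKO mice lacked the gene in the liver, *Ppara* KO mice lacked it in the whole body, and each line had WT controls of its own. Livers hold other cells besides hepatocytes, in which the albumin-driven deletion does not act. PPARα ChIP-seq was available for 3 WT and 3 LKO libraries of the *Ncor* line and of the *Gps2* line and for 2 WT and 2 KO libraries of the *Ppara* line. H3K27ac came from 3 libraries per group in the *Ncor* and *Smrt* lines, NCOR from 3 per group in the *Gps2* and *Ppara* lines, and RNA from 4 per group in the *Gps2* line. Each ChIP-seq library pooled material of several ChIPs, so that p-values measure only the spread between these libraries. Depth ranged from 7.90 to 21.0 M tags (M, 1000000) for PPARα, 11.6 to 22.1 M for NCOR, 34.3 to 46.1 M for H3K27ac and 13.2 to 20.1 M reads for RNA.

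Sequences of single members are given as examples and do not stand for the members as a whole. They were read from the mm9 genome (NCBIM37), plus strand, for 6 of the 8 members with the highest tags and for 2 weaker members at PPARα target genes. The nearest GPS2 peak lay 14 bp from the *Slc25a33* region, 54 bp from *Cobll1*, 209 bp from *Gm15441*, 221 bp from *Angptl4* and 553 bp from *Slc25a51*. It lay 2575 bp or more from the other printed regions, and the median over all members was 3672 bp. Left out were the 314 bp region near *Apoc1*, which held 1 AGGTCA, and an exon of *Ppara*. A 352 bp region in the *Cpt1a* intron (chr19:3334168-3334519), with more PPARα tags than these 2 weaker members, was also left out. This *Cpt1a* region and the *Ppara* exon held neither AGGTCA nor a DR1 with at most 1 mismatch. Capitals mark each exact AGGTCA on either strand, or in *Angptl4* the DR1 element, and sequences without capitals hold neither. The *Angptl4* region, which the authors' annotation places at the end of the gene (TTS), lies inside its 3' UTR in the GENCODE annotation of mm9, and only its element with 8 bases on each side is given.
*Sfi1* intron, chr11:3061395-3061573: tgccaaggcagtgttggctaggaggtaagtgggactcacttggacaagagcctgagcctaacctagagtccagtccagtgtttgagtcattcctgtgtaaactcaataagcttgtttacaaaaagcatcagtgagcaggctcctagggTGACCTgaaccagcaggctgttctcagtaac
*Slc25a51* upstream, chr4:45424375-45424572: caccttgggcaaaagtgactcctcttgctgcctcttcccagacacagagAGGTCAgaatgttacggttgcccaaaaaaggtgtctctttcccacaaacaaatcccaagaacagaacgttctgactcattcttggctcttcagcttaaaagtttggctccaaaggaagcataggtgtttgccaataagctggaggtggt
*Slc25a33* upstream, chr4:149173097-149173293: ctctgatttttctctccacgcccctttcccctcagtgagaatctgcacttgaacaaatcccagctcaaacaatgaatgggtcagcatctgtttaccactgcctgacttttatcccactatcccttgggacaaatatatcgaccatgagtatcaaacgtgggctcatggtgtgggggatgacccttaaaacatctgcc
*Gm15441* upstream, chr3:96378265-96378473: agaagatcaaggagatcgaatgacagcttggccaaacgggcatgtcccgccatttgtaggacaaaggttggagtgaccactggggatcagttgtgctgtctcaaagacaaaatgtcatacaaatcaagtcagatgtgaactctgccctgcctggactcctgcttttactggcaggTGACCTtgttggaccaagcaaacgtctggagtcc
*Nr1i2* intron, chr16:38282925-38283127: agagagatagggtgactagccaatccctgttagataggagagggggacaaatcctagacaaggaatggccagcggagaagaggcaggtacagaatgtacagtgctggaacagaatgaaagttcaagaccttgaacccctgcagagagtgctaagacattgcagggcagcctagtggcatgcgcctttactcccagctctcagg
*Cobll1* intron, chr2:65075623-65075798: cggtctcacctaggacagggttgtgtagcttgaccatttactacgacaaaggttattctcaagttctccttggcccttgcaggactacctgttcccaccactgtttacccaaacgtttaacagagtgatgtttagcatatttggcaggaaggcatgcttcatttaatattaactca
*Cpt1a* intron, chr19:3336107-3336315: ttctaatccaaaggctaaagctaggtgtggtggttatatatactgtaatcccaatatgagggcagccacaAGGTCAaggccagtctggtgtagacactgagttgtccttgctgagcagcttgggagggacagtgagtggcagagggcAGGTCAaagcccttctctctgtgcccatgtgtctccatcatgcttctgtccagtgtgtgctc
*Angptl4* 3' UTR, chr17:33911341-33911369: atctgttcTGTCCTTTGACCTtttgggtg

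Of the 7 whole sequences, 4 held AGGTCA and none held a DR1 with at most 1 mismatch. *Cpt1a* encodes the carnitine palmitoyltransferase that admits fatty acids to mitochondria. The printed region of its intron held 2 AGGTCA copies on the plus strand, unlike the stronger region left out. *Angptl4* encodes an inhibitor of lipoprotein lipase, and its element matched DR1 on the minus strand with 1 mismatch in the 12 repeat bases.

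Over all members on assembled chromosomes, 336 of 9263 windows reaching 100 bases to each side of the row centre held such a DR1 (3.63%, 95% Wilson interval 3.27 to 4.03), against 2.62% (2.47 to 2.77) of the 44578 rows with GPS2. Windows moved by 10000 bp to both sides of the members held it in 0.589% of cases. All intervals of shares cover counting error only. A single AGGTCA stood in 28.7% of the members, in 30.5% of the rows with GPS2 and in 12.6% of the moved windows. The HNF4 motif CAAAGTCCA was found in 2.15% of the members and 2.36% of the rows with GPS2, and the FOXA motif TGTTTAC, that of the pioneer factors of liver enhancers, in 6.61% and 6.45%. Motifs of other factors were less frequent in the members, with CEBP (TTGCGCAA, at most 1 mismatch) at 5.61% against 8.71%, ETS (CCGGAAG) at 1.72% against 4.01%, NRF1 (GCGCANGCG) at 1.17% against 2.44% and SP/KLF (GGGCGG) at 10.9% against 17.9%. CTCF (CNAGGNGGC) and the E-box CACGTG, by contrast, stood at 4.46% against 4.74% and 5.04% against 5.28%. Members had a lower mean GC content than the rows with GPS2, 49.2% against 52.2%, and fewer of them lay at promoters, where SP/KLF stood in 42.6% and 55.0%. In rows away from promoters the SP/KLF shares were 5.11% and 6.25% and the DR1 shares 4.03% and 3.09%. By quartile of PPARα tags in *Ncor* WT, from fewest to most, DR1 stood in 3.53%, 3.64%, 4.72% and 2.76% of the members. For the rows with GPS2 these shares were 2.01%, 2.21%, 2.79% and 3.12%. The highest quartile held only 145 members, with an interval of 1.08 to 6.88. Of the 83 members with PPARα peaks in both *Ppara* WT lists, 1 held a DR1. These shares describe letters in a window and were not tested between the sets.

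**Figure D1:**
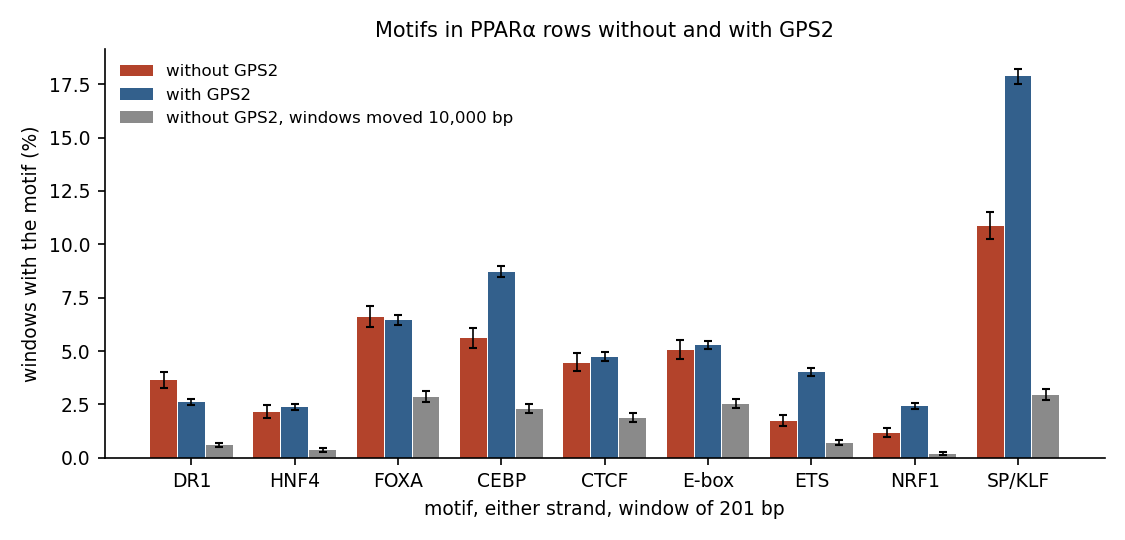
Share of windows (%) that hold each motif on either strand, for PPARα rows without GPS2 (red), with GPS2 (blue) and the windows of the former moved by 10000 bp (grey), with 95% Wilson intervals. DR1 stands at 3.63% in the rows without GPS2 and 2.62% in those with GPS2, while SP/KLF stands at 10.9% and 17.9%.

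The members were weak PPARα sites. Their median over the 3 *Ncor* WT libraries was 8.72 tags per 10 M mapped tags, against 21.0 in the rows with GPS2, and the median rose with the number of GPS2 lists in which a row had a peak, from 11.5 for 1 list to 47.6 for 4. Peak calls depend on tags, so the choice itself sets part of this relation. Of the rows with a peak in all 3 *Ncor* WT PPARα lists 6.90% had no GPS2 peak, compared to 37.8% of those in 2 lists, 64.6% of those in 1 and 78.3% of those in none. Accordingly 6796 members came from 2 lists and 2478 from all 3. Ranked over all rows with the PPARα criterion, 6242 members (67.3%) fell in the quartile with fewest tags, below 10.7 tags per 10 M, and 145 (1.56%) in the quartile with most, above 32.5.

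Absence of a GPS2 peak did not always mean distance from GPS2. The nearest GPS2 peak lay a median of 3672 bp from the edge of a member, 2777 members (29.9%) had one within 1000 bp and 854 within 200 bp. This proximity went with PPARα tags, as the median distance was 5691 bp in the quartile with fewest tags and 549 bp in the quartile with most. In the livers of the *Ppara* line, whose GPS2 lists played no part in the choice, 60 members (0.647%) had a GPS2 peak in at least 2 of 3 WT lists, against 24.2% of the rows with GPS2. In the 1479 rows of the GPS2 table of the *Ncor* line that lay over members, the median GPS2 level was 3.87, 3.33 and 2.14 tags per 10 M in the WT libraries and 1.97, 2.36 and 2.08 in the *Ncor* LKO libraries. The rows with GPS2 stood at 13.3, 12.5 and 4.82 in the same WT libraries, a difference that the choice of members by the GPS2 peaks of these libraries sets.

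Members lay mostly in introns (46.8%) and between genes (37.1%). Promoters of the authors' annotation held 9.86% of the members and 18.6% of the rows with GPS2, and 1420 members (15.3%) were within 1000 bp of a TSS, against 23.8%. The detailed annotation of the table placed more members in repeats, with 8.54% in SINEs, 7.08% in LTR elements and 4.50% in LINEs compared to 5.64%, 5.36% and 2.81% of the rows with GPS2. The members had 6216 different nearest genes, of which 4279 had 1 member and 677 had at least 3, and *Lpp* led with 11 members, followed by *Pik3r1* and *Rbfox2* with 9 each. Most of these genes, 5013 (80.6%), were also the nearest gene of a row with GPS2.

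H3K27ac covered 5009 members (54.0%) in at least 2 of the 3 *Ncor* WT lists and 79.9% of the rows with GPS2, and H3K4me3, a mark of active promoters, covered 24.5% and 37.3% in both of 2 *Gps2* WT lists. When the members were moved by 10000 bp to both sides, H3K27ac covered 15.7% and H3K4me3 4.79%. RNA polymerase II, measured in 1 *Gps2* WT library, had a peak at 10.4% of the members and at 30.5% of the rows with GPS2. At promoters 91.5% of the members carried H3K27ac and 91.7% H3K4me3, and away from promoters 47.2% and 12.4%.

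NCOR peaks were listed at many sites without a listed GPS2 peak. In *Ppara* WT livers 5046 members (54.4%) had an NCOR peak in at least 2 of 3 lists, in contrast to 2.64% after a move by 10000 bp and to 88.5% of the rows with GPS2. The lists of *Gps2* WT livers gave 26.4% and 69.2%, and both lines together 24.0% and 67.8%. The NCOR lists held 75828 to 79344 peaks in *Ppara* WT and 31561 to 53145 in *Gps2* WT. The GPS2 lists that defined its absence held 13863 to 48968. How far list length sets the shares with NCOR and without GPS2 was not tested. For their joint presence NCOR was counted in *Ppara* WT or *Gps2* WT livers and H3K27ac in *Ncor* WT or *Gps2* WT livers. Each needed peaks in at least 2 lists of a group. Both were found at 33.0% of the members and 74.1% of the rows with GPS2. By this count 1721 members (18.6%) had neither, against 1.25% of the rows with GPS2. By the *Ncor* WT lists, H3K27ac was about as frequent with NCOR of *Ppara* WT as without it. It covered 53.5% of the members with NCOR and 54.7% of those without, against 79.1% and 85.8% of the rows with GPS2 and 71.4% and 59.1% of all rows. Rows at promoters and away from them were counted together in these shares. At promoters NCOR stood at 42.0% of the members and 77.3% of the rows with GPS2, and away from promoters at 56.6% and 92.0%. The members with NCOR held the HNF4 motif in 3.59% of windows (3.11 to 4.14) and those without NCOR in 0.426% (0.270 to 0.673), while SP/KLF stood at 7.62% and 14.7% and DR1 at 4.01% and 3.17%.

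Since PPARα tags differed between the sets, the marks were also compared within quartiles of PPARα tags. H3K27ac rose with PPARα in both sets, from 44.9% of the members in the lowest quartile through 66.9% and 88.1% to 96.6% in the highest, and from 61.5% to 91.9% in the rows with GPS2. NCOR did not, because in the rows with GPS2 it went from 77.8% through 84.3% and 90.4% to 95.9%, and in the members from 51.7% through 62.5% and 55.0% to 40.0%. With a peak in any NCOR list of the *Ppara* WT and *Gps2* WT livers counted as present, the shares of the members were 74.0%, 83.0%, 76.3% and 69.0% from the lowest to the highest quartile. Among these 145 members the 49 with no GPS2 peak within 1000 bp had NCOR in 34.7% and H3K27ac in 91.8%, and the 96 with a nearer GPS2 peak had 42.7% and 99.0%. RNA polymerase II stayed below the rows with GPS2 in each quartile, at 9.44% to 14.2% against 26.1% to 31.9%. These are shares of rows in the same libraries, with no replicate test behind them.

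**Figure D2:**
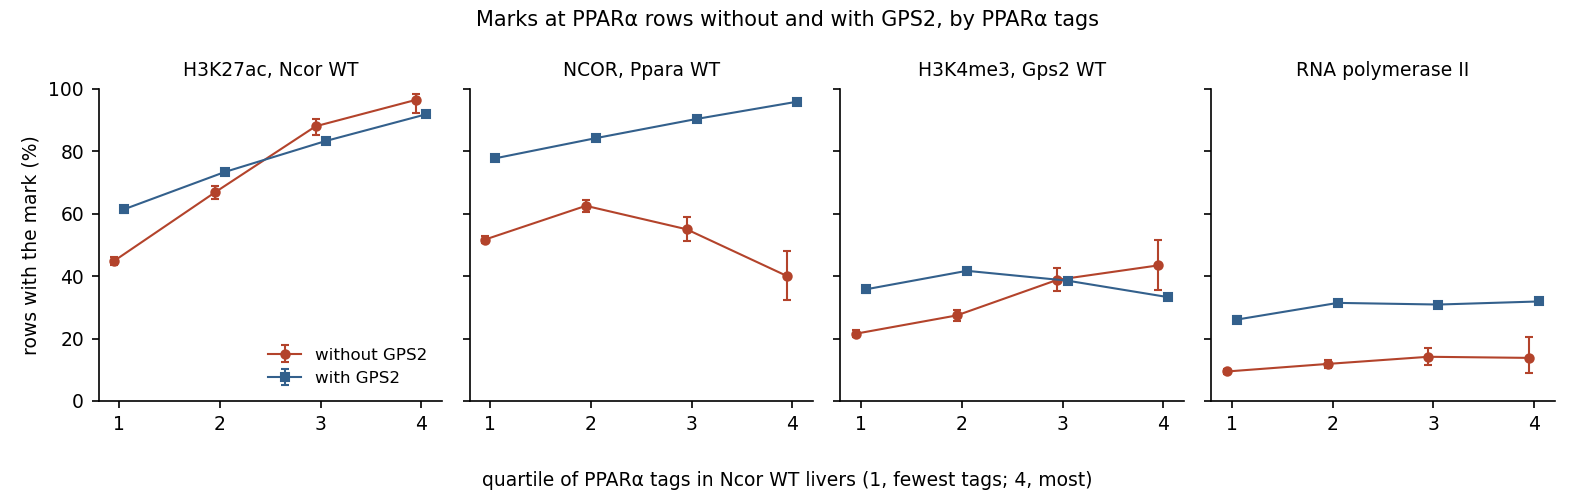
Share of PPARα rows (%) with H3K27ac, NCOR, H3K4me3 or RNA polymerase II peaks in WT livers, by quartile of PPARα tags in *Ncor* WT livers, for rows without GPS2 (red circles) and with GPS2 (blue squares), with 95% Wilson intervals. H3K27ac reaches 96.6% and 91.9% in the highest quartile, where NCOR stands at 40.0% without GPS2 and 95.9% with it.

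The dependence of the tags on the *Ppara* gene was examined in *Ppara* WT and KO livers. The PPARα table of this line had 2539 rows over members, of which 2537 were tested. Their median was 2.12 and 2.29 tags per 10 M in the WT libraries and 0.687 and 0.733 in the KO libraries. Both KO values thus lay below both WT values. The raw medians were only 3 and 3 tags in WT and 1 and 1 in KO, where rows with GPS2 had 5 and 6 in WT. So few tags leave little room for a call, and the called shares below do not compare the dependence of the sets on *Ppara*. With scaling to the total tags, edgeR's quasi-likelihood test with Benjamini-Hochberg adjustment called 334 of these rows (13.2%) lower and 0 higher in KO, where 27.6% of all 40241 rows were called lower and 0.0174% higher. At an unadjusted p below 0.05, 680 were lower and 5 higher. The median log2 difference was -1.32 in the members, -1.77 in the rows with GPS2 and -1.68 in all rows. The calls depended on the scaling, because TMM factors, which moved the median of all rows to -0.23, gave 12 members higher and 10 lower, and DESeq2 gave 7 and 0. Leaving out either WT library gave 0 lower calls. PPARα peaks in both *Ppara* WT lists were present at 83 members (0.895%) and at 14.1% of the rows with GPS2, and 48.3% of the members had PPARα peaks in at least 2 lists of *Gps2* WT livers.

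Several members, named for their PPARα tags or from lists of liver genes, were lower in *Ppara* KO by edgeR's test with scaling to the total tags. None of these calls held with DESeq2 or with blocking on the replicate number. The region at -2835 bp from the TSS of *Slc25a51*, a mitochondrial NAD carrier, had 15.6 and 17.6 PPARα tags per 10 M in *Ppara* WT and 2.75 and 5.86 in KO (log2 difference -1.94 ± 0.44 SE, n = 2 per group, edgeR adjusted p = 0.00406). The intron of *Nr1i2*, which encodes the xenobiotic receptor PXR, had 10.6 and 14.5 in WT and 2.06 and 0.733 in KO (-3.07 ± 0.63, edgeR adjusted p = 0.00202). At *Angptl4* 11.3 and 10.7 tags per 10 M in WT stood against 0.687 and 1.47 in KO (-3.27 ± 0.69, edgeR adjusted p = 0.00254). Regions near *Thrsp*, a lipogenic regulator (-3.85), *Scd1*, the stearoyl-CoA desaturase (-3.37), *Slc25a33*, a mitochondrial pyrimidine nucleotide carrier (-2.93), *Gm15441* (-2.83), *Fgb*, a fibrinogen chain (-2.73), *Srebf1*, the regulator of lipogenesis (-2.31), *Cobll1* (-1.99), *Apoa1*, the main HDL apolipoprotein (-1.96), and *Cebpa*, a hepatocyte transcription factor (-1.94), also passed the test. The region at *Dbp*, a clock output gene, did not, with 2.12 and 2.29 in WT and 2.75 and 1.47 in KO.

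The main comparison was that of PPARα in *Ncor* LKO and WT livers. The lists that chose the members came from the WT libraries of this comparison, which favours a fall in LKO, and the counts are therefore set beside rows chosen in the same way and beside members chosen in other livers. The median PPARα level of the members was 11.1, 10.1 and 5.23 tags per 10 M in the WT libraries and 7.41, 8.00 and 10.9 in the LKO libraries, and the groups overlapped. The third WT library stood apart, with 8.96% of its tags in all rows of the table against 19.3% and 18.6% in the other two and 14.7% to 21.1% in LKO. Relative to the tags in rows with GPS2, the members took 7.60%, 7.64% and 7.80% in WT and 7.09%, 7.45% and 7.47% in LKO. All 3 LKO values were below all 3 WT values, a difference in the direction that the choice favours.

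Few single members changed. By edgeR's quasi-likelihood test with Benjamini-Hochberg adjustment, 2 of the 9274 members (0.0216%) were higher and 9 (0.0970%) were lower in *Ncor* LKO, where 0.151% of all 86168 rows were called higher and 0.0453% lower, and 6 and 14 of the rows with GPS2. The unadjusted p was below 0.05 for 215 higher and 226 lower members. The median log2 difference was -0.03 in the members, 0.08 in the rows with GPS2 and 0.10 in all rows, and 47.6% of the members, 60.3% of the rows with GPS2 and 60.6% of all rows were above 0. WT and LKO libraries did not overlap for 340 higher (3.67%) and 350 lower (3.77%) members, against 5.99% and 2.01% of all rows. When rows without GPS2 were chosen by PPARα lists of *Gps2* WT and *Ppara* WT livers instead, 8813 rows had a median log2 difference of 0.17, with 11 called higher and 10 lower. With TMM factors 61 members were called higher and 52 lower, and 1096 and 400 of all rows. The counts also rested on single libraries, since without the third WT library 14 members were higher and 91 lower, and without the second WT or the third LKO library none was called. The median member had 11 to 19 tags in a WT library.

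Of the 11 called members, the 9 lower ones had *Hibadh*, *Atg4a*, *Bcat1*, *Cdpf1*, *Foxa2*, *Gpx8*, *Usp42*, *Erv3* and *Serpina4-ps1* as nearest genes and the 2 higher ones *Fam53a* and *Tle3*, and except for *Fam53a* and *Serpina4-ps1* they were named after their values were seen. The region 52704 bp from *Fam53a* had 15, 12 and 1 tags in WT and 51, 34 and 80 in LKO (log2 difference 2.60 ± 0.56 SE, n = 3 per group, edgeR adjusted p = 0.00963). The region near *Serpina4-ps1* had 66, 33 and 26 tags in WT and 2, 22 and 4 in LKO (-2.15 ± 0.55, edgeR adjusted p = 0.0428). Both calls were lost in several alternatives that left out a library or blocked on the replicate number. H3K27ac over these regions differed in the same direction, by 2.22 and -1.06 on the log2 scale (edgeR adjusted p = 0.0362 and 0.0400). The member near *Foxa2*, a pioneer factor, had 40, 37 and 7 tags in WT and 2, 9 and 2 in LKO, and lay 56717 bp from the TSS.

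Among the called members was exon 7 of *Ppara* itself (chr15:85628289-85628587, mm9), whose nearest TSS is that of *Cdpf1*. It had 8, 400 and 53 PPARα tags in *Ncor* WT and 13, 35 and 3 in *Ncor* LKO, so that 1 WT library held most of the tags (log2 difference -3.10 ± 0.54 SE, n = 3 per group, edgeR adjusted p = 9.76e-05). Rows at exons 3 to 6 and 8 of *Ppara*, which are not members, had 179, 179, 108, 146 and 54 tags in the same WT library. The pattern was not restricted to the PPARα antibody. The NCOR ChIP of *Gps2* WT livers had 86 tags at exon 7 in 1 library and 4 and 14 in the others, and the GPS2 ChIP of *Ppara* WT livers 78 in 1 library and 10 and 17 in the others. PPARα ChIP of *Ppara* KO livers had 8 and 49 tags there, against 18 and 8 in WT. The call at this exon thus rested on single libraries and is not read as a PPARα site, and no cause was tested.

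**Figure D3:**
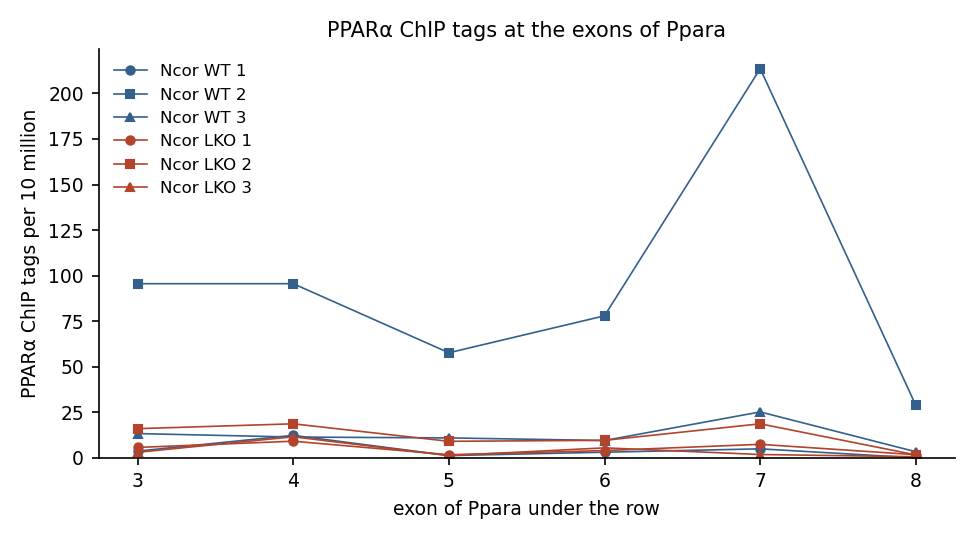
PPARα ChIP tags per 10 M in the rows at exons 3 to 8 of *Ppara* in each *Ncor* WT (blue) and *Ncor* LKO (red) library. The line of WT library 2 lies above the other 5 at each exon, and the exon 7 row is the member.

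None of the other members with most PPARα tags passed the test. The intron of *Sfi1*, a gene of the centrosome, had the highest level, with 130, 135 and 94.1 PPARα tags per 10 M in *Ncor* WT and 123, 122 and 149 in LKO. Its PPARα peak stood in only 2 of the *Ncor* WT lists and not in both *Ppara* WT lists, but in at least 2 *Gps2* WT lists. It carried NCOR by the *Ppara* WT lists but not by the *Gps2* WT lists, and no H3K27ac by the *Ncor* WT lists. It stayed similar for NCOR, with 138, 115 and 161 tags per 10 M in *Ppara* WT and 144, 111 and 121 in KO. The intergenic region near *Apoc1*, an apolipoprotein gene, had 114, 107 and 59.4 PPARα tags per 10 M in WT and 86.7, 85.9 and 97.3 in LKO. The region upstream of *Slc25a51* had 91.9, 112 and 48.0 in WT and 60.5, 101 and 134 in LKO, and that of *Nr1i2* had 80.8, 86.5 and 41.8 in WT and 34.2, 56.0 and 80.9 in LKO. In each of these the lowest WT value came from the third library, and WT and LKO overlapped. The region near *Slc25a33* had a GPS2 peak 14 bp from its edge and that in *Cobll1* one at 54 bp, whereas the nearest GPS2 peak to the *Sfi1* region was 14246 bp away.

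**Figure D4:**
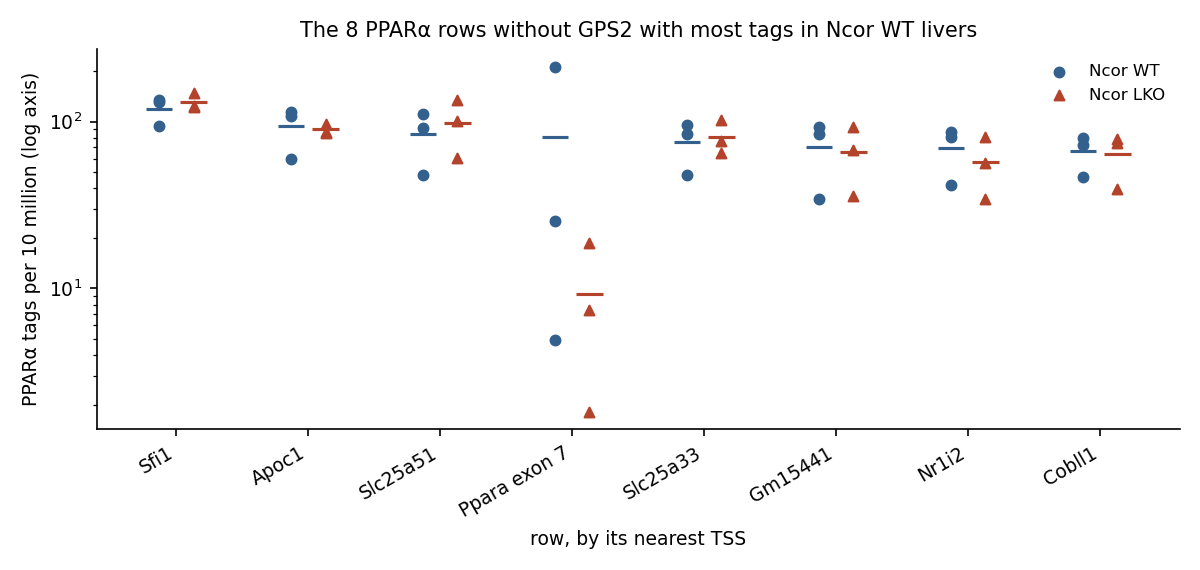
PPARα tags per 10 M (log axis) in each of 3 *Ncor* WT (blue circles) and 3 *Ncor* LKO (red triangles) libraries for the 8 rows without GPS2 with most PPARα tags, named by nearest TSS, with bars at the group means. The groups overlap in all 8 rows, and exon 7 of *Ppara* spreads over the widest range, from 1.82 to 214.

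PPARα target genes had fewer and weaker sites without GPS2 than with it, as did the table as a whole, with 9274 members at a median of 8.72 tags per 10 M and 44624 rows with GPS2 at 21.0. Of 36 listed target genes, 15 had 21 members within 20 kb as their nearest gene, with a median of 12.5 PPARα tags per 10 M in *Ncor* WT, and 34 had 125 rows with GPS2 with a median of 46.4. The 15 genes include *Cpt1a*, *Angptl4*, *Fgf21*, *Cd36*, *Plin2*, *Fabp1*, *Cyp4a14* and *Slc25a20*. The members at *Angptl4* had 33.9, 33.6 and 11.9 PPARα tags per 10 M in *Ncor* WT and 28.5, 27.7 and 38.9 in LKO, and the stronger one in *Cpt1a* 75.9, 64.6 and 19.0 in WT and 27.9, 54.4 and 49.9 in LKO. Lipogenic genes had 8 members at 5 of 14 genes, circadian genes 7 at 7 of 14, liver transcription factors 14 at 10 of 17, corepressor subunits 3 at 2 of 6 and secreted liver proteins 10 at 8 of 13. None of the members in any of these lists was called in *Ncor* LKO. The largest difference among the named ones was at *Scd1*, with 29.6, 33.1 and 17.6 tags per 10 M in WT and 49.6, 44.3 and 55.3 in LKO, where the groups did not overlap (log2 difference 0.90 ± 0.50 SE, edgeR adjusted p = 1.00). The H3K27ac row over this member was called higher, at 932, 786 and 1246 tags per 10 M in WT and 1939, 1708 and 1361 in LKO (0.76, edgeR adjusted p = 0.0442).

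H3K27ac gave more calls than PPARα at the members and over all rows alike. Its rows over members had a median of 334 to 390.5 tags in a WT library, where the median member had 11 to 19 PPARα tags. The H3K27ac rows over members numbered 5816, and 160 (2.75%) were higher and 108 (1.86%) lower in *Ncor* LKO by edgeR's quasi-likelihood test, where 2.32% of all 68817 rows were called higher and 0.801% lower and where the rows over PPARα with GPS2 gave 4.61% and 1.53%. The median log2 difference was -0.02. H3K27ac rows are wide and often hold both kinds of PPARα site. The 2993 rows with members alone had 60 higher and 51 lower calls and a median width of 1439 bp, and the 2823 rows that also held a PPARα row with GPS2 had 100 and 57 and a median width of 5188 bp. Leaving out any WT library lowered the counts to 30 to 57 higher and 24 to 62 lower calls, and leaving out the third LKO library to 86 and 57. PPARα differed in the same direction at these sites. The 173 members in rows with higher H3K27ac had a PPARα log2 difference above 0 in 152 cases, with a median of 0.49, and the 127 in rows with lower H3K27ac had one below 0 in 114 cases, with a median of -0.68. Over all members the median was -0.03. The same livers are not stated to have given both ChIPs, and the members of 1 row are not independent.

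Among called rows averaging 50 tags or more and whose WT and LKO libraries did not overlap, the largest changes are named by nearest TSS. The largest H3K27ac rises had as nearest genes *Oasl2*, an interferon-induced gene (-9059 bp from the TSS), *2810021J22Rik* (3851 bp) and *Mup5* (-9558 bp). *Mup5* is a major urinary protein gene whose many near-identical copies make its tags uncertain. The *Oasl2* row had 38.9, 21.1 and 20.1 H3K27ac tags per 10 M in *Ncor* WT and 127, 89.8 and 154 in LKO (log2 difference 2.22 ± 0.27 SE, n = 3 per group, edgeR adjusted p = 0.00440). The *Mup5* row had 136, 117 and 58.6 in WT and 379, 425 and 468 in LKO. The largest falls by the same criteria had as nearest genes *Atg4a*, an autophagy protease gene (95333 bp), *Usp42*, a deubiquitinase gene (36620 bp), and *Asns*, the asparagine synthetase gene (1779 bp). At *Atg4a* the row had 126, 84.4 and 64.0 in WT and 7.46, 6.59 and 9.98 in LKO, and at *Usp42* 47.9, 56.3 and 47.0 in WT and 2.94, 9.03 and 8.02 in LKO. The *Asns* row had 21.5, 61.9 and 150 in WT and 5.65, 15.9 and 12.4 in LKO (edgeR adjusted p = 0.0357).

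Livers of the *Smrt* line, in which NCOR was present, were tabulated together with the *Ncor* line and show which group stands apart at these rows. At *Atg4a* the *Smrt* WT libraries had 6.71, 7.36 and 7.14 H3K27ac tags per 10 M, at *Asns* 6.13, 3.93 and 8.00 and at *Mup5* 241, 273 and 342, each closer to *Ncor* LKO than to *Ncor* WT. Of the 108 H3K27ac rows over members that were lower in *Ncor* LKO, *Smrt* WT was nearer to *Ncor* LKO than to *Ncor* WT on the log2 scale in 80 (74.1%), and of the 160 higher rows in 93 (58.1%). The median log2 difference of *Smrt* WT from *Ncor* WT was -1.23 in the lower rows, 0.53 in the higher rows and 0.03 in all 5816. All rows of the table gave 73.5% for lower and 61.9% for higher calls. The *Ncor* WT libraries enter both differences, and a difference between the *Ncor* WT mice and the other livers cannot be told apart here from an effect of *Ncor* at these rows. The same holds for the PPARα differences at these sites, for which the *Smrt* line had no libraries. *Smrt* LKO differed from *Smrt* WT in the same direction as the *Ncor* lines in 48 of the 108 lower and 78 of the 160 higher rows.

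**Figure D5:**
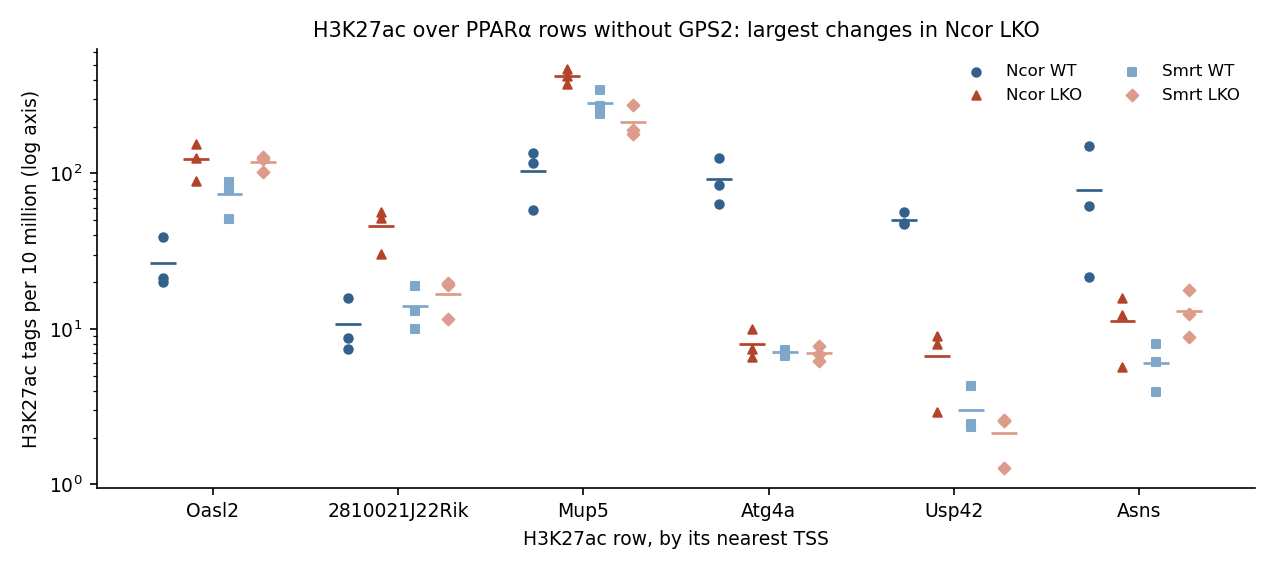
H3K27ac tags per 10 M (log axis) in 3 libraries each of *Ncor* WT, *Ncor* LKO, *Smrt* WT and *Smrt* LKO livers, for the 3 largest called rises and 3 largest called falls in *Ncor* LKO over PPARα rows without GPS2, among rows averaging 50 tags or more with no overlap of WT and LKO, with bars at the group means. Rows are named by nearest TSS. At *Atg4a*, *Usp42* and *Asns* the *Ncor* WT libraries stand above the other 9, and at *Oasl2* and *Mup5* they stand below the other 9. At *2810021J22Rik* the *Ncor* LKO libraries stand above the other 9.

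NCOR at the members was compared in *Ppara* KO livers. The NCOR rows over members numbered 7453 and had a median of 11.4, 10.3 and 12.6 tags per 10 M in WT and 10.6, 10.8 and 7.83 in KO, and the groups overlapped. By edgeR's quasi-likelihood test 35 (0.470%) were higher and 190 (2.55%) lower in KO, against 0.136% and 2.51% of all 115042 rows and 37 and 1741 of the 44349 over rows with GPS2. The median log2 difference was -0.26 in the members and -0.32 in all rows, and with TMM factors, which moved the median of all rows to -0.02, 114 were higher and 81 lower. The rows with the highest NCOR levels did not pass the test. Those were, besides *Sfi1*, a region near *Lsm5* with 136, 102 and 141 tags per 10 M in WT and 80.1, 135 and 89.7 in KO, one near *Adam28* with 106, 90.3 and 122 in WT and 114, 114 and 97.5 in KO, one in *Nuak2* with 101, 66.2 and 120 in WT and 84.2, 93.6 and 72.6 in KO, and an intron of *Zfp236* with 115, 81.7 and 132 in WT and 102, 86.2 and 72.6 in KO. At the *Zfp236* intron PPARα fell from 21.9 and 22.2 tags per 10 M in *Ppara* WT to 2.75 and 0 in KO (log2 difference -3.88 ± 0.57 SE, n = 2 per group, edgeR adjusted p = 0.000155). Its GPS2 peak lay 5 bp from the edge.

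Few NCOR rows over members passed the test in *Gps2* LKO livers. Of 5947 NCOR rows over members 2 were higher and 1 lower by edgeR's quasi-likelihood test, where 0.0173% of all 80813 rows were called, and an unadjusted p below 0.05 was found for 153 higher and 103 lower. Their median was 7.69, 7.12 and 4.64 tags per 10 M in WT and 6.57, 8.22 and 4.34 in LKO, and TMM factors gave 24 higher and 10 lower.

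With scaling to the total tags, PPARα was higher in *Gps2* LKO livers over the members and over all rows alike. The median level at the 8377 rows over members was 10.1, 11.4 and 10.2 tags per 10 M in WT and 17.2, 17.1 and 17.0 in LKO, so that all LKO libraries were above all WT libraries. The 3 WT libraries differed by no more than sampling noise, with a mean chi-square per row of 0.924 to 0.940, and were counted as 1 sample, although they had 86, 45 and 13 tags at exon 7 of *Ppara*. On this basis, with 1 WT sample whose spread was assumed to be that of the 3 LKO libraries, edgeR's quasi-likelihood test called 247 members' rows (2.95%) higher and 2 lower, against 2.49% and 0.0234% of all 102519 rows and 3.81% higher of those with GPS2, and with the WT libraries counted apart 3179 were higher and 27 lower. The median log2 difference was 0.65 in the members, 0.58 in the rows with GPS2 and 0.61 in all rows. The share of tags in the rows of the table was 19.2% to 21.9% in WT and 28.9% to 32.1% in LKO, and with TMM factors, which moved the median of all rows to 0.02, 5 were higher and 4 lower, so the rise rests on the scaling to total tags. Without the third LKO library 71 were higher and without the first 443.

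RNA in *Gps2* LKO livers was read for the genes whose TSS is the nearest to a member within 10000 bp, with *Gps2* itself at 16.5, 15.8, 16.7 and 15.1 CPM (counts per 1000000 counts) in WT and 12.6, 9.84, 9.13 and 12.9 in LKO. Of 2447 such genes tested, 523 (21.4%) were up-regulated and 665 (27.2%) down-regulated by edgeR's quasi-likelihood test, where 23.4% and 21.4% of all 12220 genes were. Of 8899 genes near rows with GPS2, 1899 were up-regulated and 2229 down-regulated. The 596 genes with a member but no row with GPS2 within that distance had 139 up-regulated and 88 down-regulated (23.3% and 14.8%). In bulk liver, fewer cells of a type and less RNA per cell cannot be told apart. All 4 macrophage markers, at a summed 69.8 to 72.6 CPM in WT and 95.1 to 113 in LKO, and all 4 stellate and fibroblast markers, at no more than 104 CPM in WT and at least 183 in LKO, were higher in LKO, as were 3 of 5 hepatocyte, 2 of 4 cholangiocyte and 1 of 4 endothelial markers. The neutrophil and lymphocyte markers, at 0.595 to 1.15 and 1.23 to 2.54 CPM, gave no call. Their part in the RNA results was not tested.

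Among genes near members with called RNA changes, at least 100 counts on average and no overlap of WT and LKO, the largest rise was that of *Cyp4a14*, a fatty acid omega-hydroxylase and PPARα target, with 4.05, 4.17, 3.38 and 5.18 CPM in WT and 127, 126, 108 and 118 in LKO (log2 difference 4.85 ± 0.11 SE, n = 4 per group, edgeR adjusted p = 6.76e-13). Its member lay at -53 bp from the TSS with a mean of 10.1 PPARα tags per 10 M in *Ncor* WT and 17.6 in LKO, and 2 rows with GPS2 lay within 10 kb. *Akr1c18*, a hydroxysteroid dehydrogenase gene (4.47), and *Asns* (2.97) had members but no row with GPS2 within 10 kb, and *Apoa4*, an apolipoprotein gene (4.29), and *Serpina7*, which encodes the thyroxine-binding globulin (2.46), had both. *Asns* RNA rose from 2.43 to 4.86 CPM in *Gps2* WT to 26.2 to 31.2 in *Gps2* LKO. The largest falls by the same criteria were those of *C4a* (-3.01), *Selenbp2* (-2.71), *Cyp4a12a* (-1.90), *Rarres1* (-1.86) and *Bcl6*, a transcriptional repressor (-1.85). *C4a*, *Selenbp2*, *Cyp4a12a* and *Cyp4a14* have close paralogs, which makes their counts uncertain. Among listed genes near a member, 4 of 10 PPARα targets were up-regulated and 4 down-regulated, compared to 20 and 6 of all 35 tested, and 4 of 5 lipogenic genes were up-regulated and 1 down-regulated, compared to 11 and 1 of 14. Of 9 liver transcription factors near a member, 2 were up-regulated and 6 down-regulated, compared to 5 and 8 of all 17. Of 7 circadian genes near a member these were 2 and 1, compared to 3 and 3 of all 13 tested. Of 6 secreted protein genes near a member 4 were up-regulated and 1 down-regulated, compared to 8 and 1 of all 13. *Hdac3*, the corepressor subunit gene near a member, had 31.3 to 35.1 CPM in WT and 27.9 to 32.5 in LKO with no call.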

How the data were processed

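The authors aligned ChIP-seq reads to mm9 with Bowtie, called peaks with HOMER and deposited peak lists per library and raw tag counts per peak, with the total of uniquely mapped tags in the headers. The RNA counts per gene were deposited without normalization, and whether HOMER or featureCounts made them is not settled. The score column of the deposited peak lists holds 1 for every peak, and the authors' positions alone were used. No source used here gives versions of the aligners or HOMER. The fold changes, likelihood ratios, p-values and FDR of the authors in the RNA table were not used. Overlaps were counted at 1 base, and a mark counted as present with peaks in at least 2 WT lists (1 for RNA polymerase II). Counts were tested with edgeR 4.0.16 in R 4.3.3 (quasi-likelihood, adjusted p below 0.05, Benjamini-Hochberg over the whole table). Library sizes were the total tags for ChIP-seq, in rows with at least 1 tag. RNA used TMM factors and filterByExpr. DESeq2 1.42.0, other scalings, filters, choices of members and left-out libraries were alternatives. The scripts were tested on simulated data. Motifs were matched in the mm9 genome with Python 3.11.15.

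Samples were grouped by their labels. Members, lists and tests were chosen with earlier results of these data known. Regions were named by rule: the 8 with most WT PPARα tags, the 5 largest called changes of PPARα each way where WT and LKO did not overlap and the libraries averaged 20 tags or more, up to 3 per gene list, the 5 with most NCOR and the 3 largest called H3K27ac changes each way likewise separated and averaging 50 tags or more. Genes were the 5 largest called RNA changes each way, likewise separated and averaging 100 counts or more.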

Additional observations from a re-analysis of the deposited data

Results flagged for a closer look

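*Serpina7* RNA in the first *Gps2* WT library, at 15.5 CPM, stood below the other 3 WT libraries at 18.6 to 19.0 CPM by more than the critical gap for 4 samples. Chance gives such a gap in about 1 in 20 groups, and 20 groups were examined. The LKO libraries, at 84.0 to 108 CPM, did not come near it.

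The H3K27ac row at *Asns* differed in opposite directions in the *Ncor* and *Smrt* lines. It fell from 21.5, 61.9 and 150 tags per 10 M in *Ncor* WT to 5.65, 15.9 and 12.4 in *Ncor* LKO. In the *Smrt* line all 3 LKO libraries, at 17.8, 12.5 and 8.93, lay above all 3 WT libraries, at 6.13, 3.93 and 8.00, and the ratio of the means was 2.174. The difference between the lines was not tested.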

How the results depend on the processing

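Counts of calls are given as higher and lower. PPARα in *Ncor* LKO (2 and 9) became 61 and 52 with TMM factors, 22 and 4 with DESeq2, 0 and 0 with the replicate block, 0 and 1 for members in all 3 lists and 11 higher for members chosen in other livers, while filterByExpr gave 1 lower and a distance of 1000 bp from GPS2 gave 5 lower. H3K27ac (160 and 108) became 260 and 180 with DESeq2, 73 and 56 with the block, 46 and 37 for all 3 lists and 96 and 62 at 1000 bp. PPARα in *Gps2* LKO (247 and 2) became 5 and 4 with TMM, 1 and 1 with DESeq2, 77 and 1 for all 3 lists, 3179 and 27 with the WT libraries counted apart and 3110 and 27 with the block added to that, both chosen after the data were seen. PPARα in *Ppara* KO (0 and 334) became 12 and 10 with TMM, 1 and 111 with filterByExpr, 7 and 0 with DESeq2, 0 and 0 with the block, 205 lower for all 3 lists and 182 lower at 1000 bp. NCOR in *Ppara* KO (35 and 190) became 114 and 81 with TMM, 23 and 12 with DESeq2, 116 lower with filterByExpr, 24 higher with the block and 8 and 74 for all 3 lists. NCOR in *Gps2* LKO (2 and 1) became 24 and 10 with TMM, 3 and 2 with DESeq2, 16 and 10 with the block and 0 higher for all 3 lists. RNA (523 and 665) became 258 and 262 within 1000 bp and 164 and 199 for all 3 lists. Numbers of members fall with the stricter choices by construction, and the causes of the other shifts were not tested.

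Leaving out 1 library gave 0 to 14 higher and 0 to 91 lower calls for PPARα and 30 to 179 and 24 to 139 for H3K27ac in *Ncor* LKO. It gave 71 to 443 and 2 to 3 for PPARα and 0 to 7 and 0 to 2 for NCOR in *Gps2* LKO, 0 to 1 and 0 to 226 for PPARα and 12 to 38 and 64 to 161 for NCOR in *Ppara* KO, and 422 to 635 and 540 to 869 for RNA. With 1 WT library left in *Ppara* KO, that library was assumed to vary like the KO group.

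The replicate numbers did not pair the libraries. Correlations of the deviations of same-numbered libraries ran from -0.149 to 0.271 over all comparisons and were not above 0.1 for every pair in any of them, and the block is given here alone.

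Members in all 3 lists had H3K27ac in 59.9%, H3K4me3 in 26.6% and NCOR in 59.1% (*Ppara* WT) and 33.6% (*Gps2* WT). Overlap of 50% of the row gave 18.2% within 1000 bp of a TSS, 55.4% with H3K27ac, 26.6% with H3K4me3 and 45.9% and 23.5% with NCOR. Without GPS2 in the *Ppara* WT lists as well, 14.0% were within 1000 bp of a TSS and 52.6%, 22.9% and 25.2% had H3K27ac, H3K4me3 and NCOR of *Gps2* WT. With a distance of 3000 bp in place of 1000 bp, 22.8% of the members themselves were near a TSS. No direction was reversed for single regions or genes.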
